A study of Mus musculus with 6 samples.

Results

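The genes described here are 10 imprinted genes of the mouse: Meg3, Rian, Mirg, Peg3, Zim1, Ndn, Snrpn, Grb10, Plagl1 and Igf2. They were found by symbol in the feature list of a single-nucleus RNA-seq matrix of the forebrain, where they are 10 of 32285 genes. They were chosen by name with UMI levels of these nuclei known, and Zim1 was selected on its level, since it stood among the leading genes of a large neuron cluster. Their levels are therefore given as a description, without a test.

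Nuclei came from flash-frozen forebrain of littermate mice at postnatal day 16 (P16), 3 WT and 3 Npc1-/-, the latter homozygous for the null Npc1nih allele of the cholesterol transporter NPC1 whose loss causes Niemann–Pick C disease. All were F1 hybrids of BALB/cJ and C57BL/6J. Transcripts were captured at their 3' ends on the 10x Genomics Chromium platform and counted as unique molecular identifiers (UMIs). The matrix joins 6 libraries that are told apart only by the number at the end of each barcode, and the sources used here hold no key from that number to a mouse or genotype, so libraries are named 1 to 6, WT and Npc1-/- are not compared, and libraries are not treated as replicates of a group.

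Imprinted genes are transcribed mainly or only from the chromosome of a given parent, which is set by DNA methylation laid down in the egg or sperm, and they sit in clusters that share a control region. In the brain many of them act on growth, feeding and neuronal differentiation, and some switch allele or escape imprinting in particular cells. Meg3, Rian and Mirg are noncoding RNAs of the maternal chromosome in the Dlk1-Dio3 domain. Peg3 is a paternally expressed zinc finger gene, and its neighbour Zim1 is a maternally expressed one. Ndn (necdin) and Snrpn (the spliceosomal protein SmN) belong to the paternally expressed Prader-Willi domain. Grb10 encodes an adapter that restrains insulin and IGF receptor signalling, Plagl1 (Zac1) a zinc finger factor of the cell cycle, and Igf2 a growth factor. The counts hold no information on the parental allele, which was not measured.

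By the GENCODE annotation of GRCm38, Meg3 (chr12:109541001-109571726), Rian (chr12:109603940-109661716) and Mirg (chr12:109729764-109749460) lie on the plus strand in this order, 32.2 kb and 68.0 kb apart. In the RefSeq microRNA table (GRCm38.p6), which is not complete, these spans hold 1, 3 and 14 hairpins on the same strand. Peg3 (chr7:6703892-6730431) and Zim1 (chr7:6671269-6696450) both lie on the minus strand, 7.44 kb apart. Snrpn (chr7:59982495-60140219, minus strand) and Ndn (chr7:62346569-62350262, plus strand) lie 2206 kb apart. Grb10 (chr11:11930508-12038683, minus strand), Plagl1 (chr10:13060504-13131694, plus strand) and Igf2 (chr7:142650766-142666816, minus strand) stand in domains of their own. Snrpn shares 22570 bases on its own strand with Gm38393, and 9601 with Snurf, which had 0 UMIs. Ndn lies inside Gm32061, and Igf2 overlaps Igf2os, both on the opposite strand. Reads could have been divided between Snrpn and the genes on its own strand, so its values are uncertain to that extent. Whether the genes on the opposite strand affected the values of Ndn and Igf2 was not tested.

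The 250 bases before the first RefSeq start (GRCm38.p6) are shown for the Dlk1-Dio3 RNAs, whose levels correlated closely across clusters. They are also shown for Peg3 and Zim1, neighbours whose levels correlated less closely, with few UMIs of Zim1. Capitals mark TGCCGC or its reverse complement GCGGCA, the hexamer that the zinc finger protein ZFP57 binds at methylated imprinting control regions. Sequences run 5′ to 3′ along the strand of the gene.
Meg3 (chr12:109540746-109540995): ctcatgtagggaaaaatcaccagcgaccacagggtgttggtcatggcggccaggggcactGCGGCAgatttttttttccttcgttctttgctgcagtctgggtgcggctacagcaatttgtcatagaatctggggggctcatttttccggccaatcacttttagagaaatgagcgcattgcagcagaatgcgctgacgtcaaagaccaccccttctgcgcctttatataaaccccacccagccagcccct
Rian (chr12:109603695-109603944): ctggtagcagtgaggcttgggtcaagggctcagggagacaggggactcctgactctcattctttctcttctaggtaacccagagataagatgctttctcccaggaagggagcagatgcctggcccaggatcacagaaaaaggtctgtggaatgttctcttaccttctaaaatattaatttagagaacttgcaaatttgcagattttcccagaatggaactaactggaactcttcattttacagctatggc
Mirg (chr12:109734731-109734980): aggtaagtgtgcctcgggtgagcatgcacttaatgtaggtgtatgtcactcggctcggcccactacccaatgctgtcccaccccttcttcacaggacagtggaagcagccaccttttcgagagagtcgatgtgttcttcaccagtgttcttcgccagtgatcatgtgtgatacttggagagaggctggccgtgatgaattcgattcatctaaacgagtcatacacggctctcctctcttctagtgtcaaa
Peg3 (chr7:6730420-6730669): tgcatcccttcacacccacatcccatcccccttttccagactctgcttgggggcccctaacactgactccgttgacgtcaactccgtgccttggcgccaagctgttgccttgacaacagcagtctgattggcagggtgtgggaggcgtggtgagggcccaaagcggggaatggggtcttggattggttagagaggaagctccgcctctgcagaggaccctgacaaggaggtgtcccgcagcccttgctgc
Zim1 (chr7:6696433-6696682): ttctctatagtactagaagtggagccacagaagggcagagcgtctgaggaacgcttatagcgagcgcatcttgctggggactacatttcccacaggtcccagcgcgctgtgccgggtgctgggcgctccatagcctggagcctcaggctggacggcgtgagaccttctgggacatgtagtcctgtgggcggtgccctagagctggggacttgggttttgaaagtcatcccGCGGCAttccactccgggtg
The Meg3 and Zim1 windows each hold 1 match, and those of Rian, Mirg and Peg3 hold none. Over all 32851 RefSeq windows of this length, searched on both strands, 8.68% hold the hexamer. Of the 18 RefSeq windows of the 10 genes, 3 hold it, the other match being at Plagl1. The windows shown hold 10, 0, 10, 8 and 14 CpG dinucleotides for Meg3, Rian, Mirg, Peg3 and Zim1, against a median of 6 over all windows. The Mirg start in RefSeq lies inside the span that GENCODE gives to the gene, and the window shown holds the Mir668 and Mir485 hairpins. A match is a string of letters and does not show that a protein was bound.

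After 11 barcodes with a mitochondrial share of 10% or more were left out, 75867 nuclei remained, 8215 to 16109 per library, with medians of 4471 to 5439 UMIs per nucleus. The mitochondrial share of UMIs was 0.147%, 0.263%, 0.143%, 0.0807%, 0.0492% and 0.0428% in libraries 1 to 6. Of the distinct 16-base barcodes, 0.839% occurred in more than 1 library. Clustering without the imprinted genes gave 50 clusters, of which 33 were named by marker lists into 20 classes, and 14550 nuclei (19.2%) stayed unnamed. A single cluster of 5569 nuclei, led by Baiap3 and Prlr, raised only 4 of the 9 markers of subcortical GABA neurons, and 744 of its nuclei had UMIs of the glutamate transporter Slc17a6 but none of the GABA genes. It is called the Baiap3 subcortical cluster here. The class of cortical excitatory neurons pooled 9 clusters, and some of these were weakly named. Those of 4831, 887 and 796 nuclei scored -0.007, -0.027 and -0.013 on the cortical list, with 3, 3 and 6 of 10 markers raised. Whether all nuclei of that class were of the neocortex was not tested. Levels are CPM, the UMIs of a gene per 1000000 UMIs of a class, pooled over libraries and followed by the lowest, median and highest library. Intervals are exact 95% intervals and cover counting error only.

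Meg3 took 0.850% of all UMIs and had at least 1 UMI in 99.5% of nuclei. It was highest in the Baiap3 subcortical cluster, at 16223 (15934, 16140.1 and 16985), and in thalamic neurons, at 16111 (15540.5, 16151 and 16717). These classes traded places by library, with the Baiap3 cluster higher in 3 of 6. Interneurons followed at 14337 (13985, 14273 and 14801), and cortical excitatory neurons at 9400.0 (9064, 9273 and 10331). Striatal projection neurons stood at 7909 (7497, 7772 and 8853), below the cortical neurons in every library. Dentate granule neurons were the exception among neurons, at 3523 (3008, 3419 and 4319.9), inside the range of the glial and vascular classes. Astrocytes held 2294 (1394, 1958 and 3730.1), and mature oligodendrocytes 1195 (864, 1144 and 2637), the lowest class in each of 6 libraries.

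Rian and Mirg, which host small nucleolar RNAs and microRNAs, kept nearly the same order. Rian was highest in thalamic neurons in all 6 libraries, at 1372 (1266, 1359 and 1492), ahead of the Baiap3 cluster at 1307 (1244, 1292 and 1382). Mirg was highest in the Baiap3 cluster in all 6 libraries, at 276 (253, 272 and 309.9), ahead of thalamic neurons at 244 (213, 247 and 264). So the leading class differed between the 2 RNAs while the same 2 classes led both. Mature oligodendrocytes were lowest for Rian in 6 libraries, at 138 (96.6, 132 and 293), and for Mirg in 5, at 15.6 (11.1, 19.3 and 31.7). Dentate granule neurons were again low among neurons for both, with Rian at 404 (311, 384 and 505) and Mirg at 60.1 (50.99, 57.4 and 72.5).

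The ratios within the domain varied little beside this range of levels. Per 100 UMIs of Meg3, Rian had from 8.06 UMIs in the Baiap3 cluster to 11.7 in astrocytes. Mirg had from 1.21 per 100 Meg3 UMIs in astrocytes to 1.81 in dividing nuclei and pericytes. Pooled over libraries, astrocytes thus had the highest Rian share and the lowest Mirg share of the domain. Their library ranges, 11.2 to 12.5 and 1.09 to 1.41, overlapped those of mature oligodendrocytes, 10.8 to 12.5 and 1.13 to 2.27. Across the 50 clusters, the Pearson correlation of log2(CPM + 1) with Meg3 was 0.993 for Rian and 0.985 for Mirg. Among all 16684 genes compared, the most alike to Meg3 were Rian, B830012L14Rik (0.9905) and Mirg. B830012L14Rik is a long noncoding RNA on the same strand between Rian and Mirg, at chr12:109695586-109702587. Clusters share libraries, depth and RNA from other cells, so these are descriptions.

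**Figure D1:**
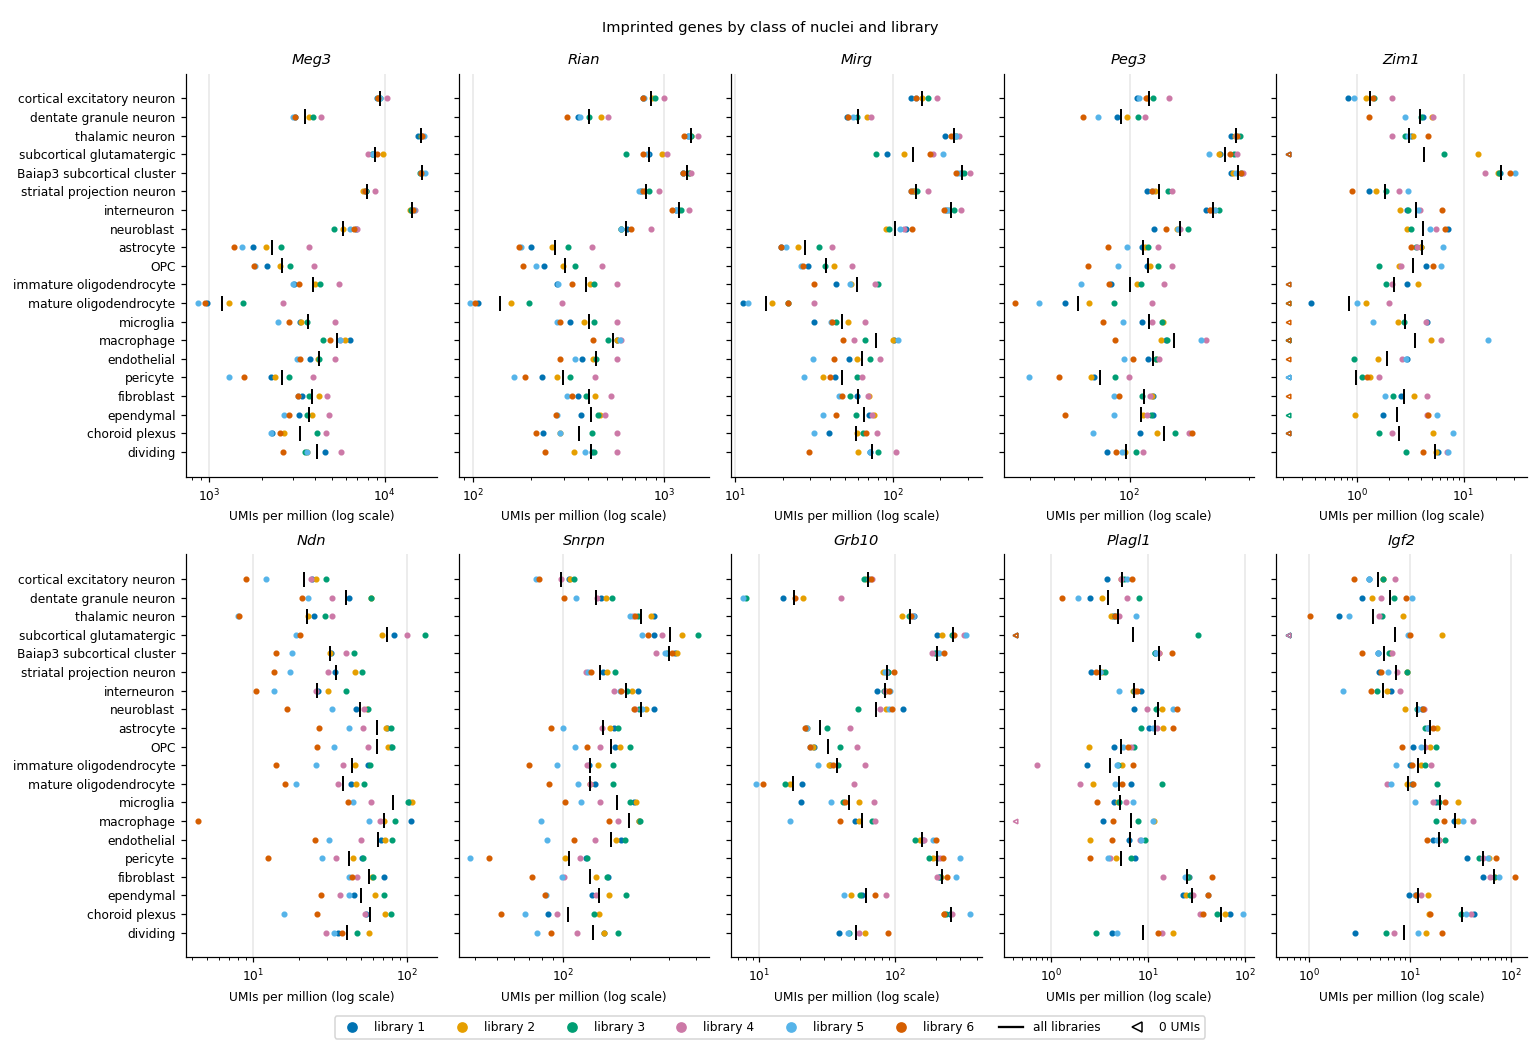
Levels of the 10 imprinted genes in 20 classes of nuclei (rows), as CPM on log axes. Each point is a library, the bar is the pooled value, and an open triangle at the left marks a library with 0 UMIs. Meg3, Rian and Mirg have nearly the same order of classes, Zim1 stands out in the Baiap3 subcortical cluster, and Igf2 is highest in fibroblasts.

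Meg3, Rian and Mirg were higher in neurons than in glia. The comparison set 32144 neuronal nuclei against 17831 nuclei of astrocytes, oligodendrocyte precursors (OPCs), immature and mature oligodendrocytes and microglia. Meg3 held 10647, 10750, 11022, 11783, 11075 and 10900.3 CPM in neurons of libraries 1 to 6, and 1949, 2381, 2934, 4160.2, 1711 and 1871 in glia. No library of the neurons reached down to any library of the glia. The pooled log2 ratio was 2.12 (95% interval 2.11 to 2.12, libraries 1.502 to 2.69) for Meg3, 1.76 (95% interval 1.74 to 1.78, libraries 1.26 to 2.27) for Rian and 2.43 (95% interval 2.37 to 2.50, libraries 2.07 to 2.81) for Mirg.

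A gene was counted as apart when it differed at least 2-fold in the same direction in each of 6 libraries, among genes with 200 or more UMIs over both groups. By that count 3 of the 10 genes were higher in neurons, against 4.43% of 17723 genes tested. These were Meg3, Rian and Mirg, neighbours in the same domain whose levels correlated closely, so they are not 3 separate cases. Igf2 alone among the 10 was lower in neurons by that count, against 14.2% of the genes tested, with a log2 ratio of -1.45 (95% interval -1.56 to -1.33, libraries -2.13 to -1.10). Grb10 was higher in neurons in all 6 libraries but fell short of 2-fold in library 4, with a log2 ratio of 1.63 (95% interval 1.56 to 1.69, libraries 0.84 to 2.15). Ndn was lower in neurons in all 6 libraries, -1.19 (95% interval -1.25 to -1.14, libraries -1.30 to -0.83), again short of 2-fold in library 4. Peg3, at 0.62 (95% interval 0.58 to 0.65, libraries 0.44 to 1.09), was modestly higher in neurons, and Plagl1, at -0.32 (95% interval -0.45 to -0.18, libraries -0.52 to -0.21), lower. The ratio of Zim1 was 0.73 (95% interval 0.52 to 0.95, libraries 0.49 to 1.21), and nothing is read from it, since the neurons include the Baiap3 cluster for which Zim1 was chosen. Snrpn was even between the groups, at 0.04 (95% interval 0.01 to 0.07, libraries -0.13 to 0.55). The median log2 ratio of the 10 genes was 0.67, and that of the 9 without Zim1 was 0.62, beside -0.37 over all genes tested. Meg3, Rian and Mirg enter both medians, and the genes outside their domain lay on either side of even.

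UMIs of neuronal genes were found in the glial nuclei. A list of 5 neuronal genes (Snap25, Syt1, Rbfox3, Grin1 and Celf4) summed to 5670.3 CPM in neurons and to 1784 in glia, with none of the 5 at 0 in glia. The glial sum was 1499, 1747, 2058, 2717, 1152 and 1201 in libraries 1 to 6, so library 4 was highest there, as it was for Meg3 in glia. Per 100 UMIs of that list, Meg3 had 143 UMIs in glia and 194 in neurons, of which cortical excitatory neurons had 145, striatal neurons 163 and the Baiap3 cluster 362. Rian had 16.02 per 100 in glia, 17.1 in neurons and 13.2 in cortical neurons, and Mirg 1.89, 3.22 and 2.38. Set against the neuronal list, glia lay below neurons in all 6 libraries for Meg3 and Mirg, but for Rian only in libraries 1 to 4. Between glia and cortical neurons the order of Meg3 and Mirg was not the same in every library, with glial Meg3 the higher in libraries 5 (149 against 147) and 6 (156 against 146) and glial Mirg in library 5 (2.23 against 2.21). How much of the glial Meg3, Rian and Mirg came from neurons was not tested. When 6 clusters with a high doublet score were kept in the class of their markers, an alternative added after the data were seen, 0 of the 10 genes passed the 2-fold count, with log2 ratios of 1.22 for Meg3, 1.08 for Rian, 1.31 for Mirg and -1.11 for Igf2. The same change lowered the share over all genes from 4.43% to 0.3498% higher and from 14.2% to 10.6% lower. Counted per nucleus instead of per UMI, the median of all genes moved from -0.37 to 0.87, since neurons had more UMIs per nucleus. On that scale 4843 genes were higher and 854 lower in neurons, instead of 785 and 2508 (27.3% and 4.82% of genes tested). Peg3, Zim1 and Grb10 then joined Meg3, Rian and Mirg as higher, 6 of the 10, and the 2-fold call of Igf2 was lost. Nothing is read from Zim1 in that count either, since it was chosen for its level in neurons of the Baiap3 cluster. The direction of Ndn (0.05) and Plagl1 (0.93) changed on that scale. At a finer clustering (resolution 2.0), which took the name from the Baiap3 cluster described next, Zim1 was lower in neurons (-0.75), and the median of the 10 genes was 0.11, beside -0.42 over all genes.

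**Figure D2:**
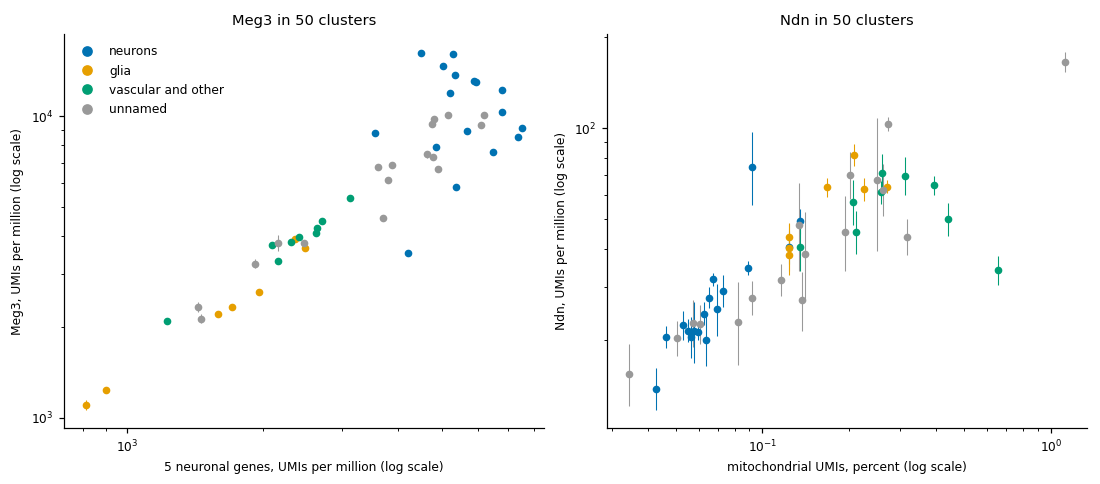
Left, Meg3 against the summed level of 5 neuronal genes in 50 clusters. Right, Ndn against the mitochondrial share of UMIs in the same clusters. All axes are logarithmic, points are pooled clusters coloured by kind, and vertical lines are exact 95% Poisson intervals. Meg3 follows the neuronal genes among glial and vascular clusters, with dentate granule neurons the lowest neuronal point, and Ndn is higher in most clusters with a larger mitochondrial share, a pericyte cluster at 0.655% being an exception.

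Zim1, a zinc finger gene named for its imprinting, had 1056 of its 2114 UMIs in the Baiap3 subcortical cluster. There it held 22.2, 20.9, 21.6, 15.8, 30.7 and 27.0 CPM in libraries 1 to 6, pooled 22.6 (95% interval 21.2 to 24.0). Every one of these values was above every library of cortical excitatory neurons, which held 1.32 (0.814, 1.31 and 2.15), and of thalamic neurons, which held 3.10 (2.12, 3.09 and 4.59). The next named class was that of dividing nuclei at 5.35 (2.87, 5.58 and 7.15), from 17 UMIs, and from there on the intervals of neighbouring classes overlapped, down to mature oligodendrocytes at 0.838, from 8 UMIs. A Zim1 UMI was found in 14.99% of nuclei of the Baiap3 cluster (median 7232 UMIs per nucleus), in 1.21% of cortical neurons (median 8610 UMIs) and in 0.425% of mature oligodendrocytes (median 5284 UMIs). With each nucleus thinned to 2000 UMIs the shares were 4.398%, 0.276% and 0.176%. The cluster had 9.62 times the level of all other nuclei pooled, place 21 by fold among 8522 genes found in 10% or more of its nuclei. That place restates the reason for which Zim1 was chosen.

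Inside the Baiap3 cluster, Zim1 was found in nuclei of either transmitter. It stood at 21.6 (19.6 to 23.7) in 2163 nuclei with 2 or more UMIs of Slc32a1, Gad1 or Gad2 and none of Slc17a6, at 24.5 (20.9 to 28.5) in the 744 nuclei with Slc17a6 and no such GABA gene, and at 22.95 (20.9 to 25.2) in the other 2662. These counting intervals overlapped. Grb10 was 189 (183 to 195) in the GABA-gene nuclei and 205 (194 to 216) in the Slc17a6 nuclei, and Snrpn 298 (291 to 306) and 327 (314 to 341), so that the pooled Snrpn intervals did not meet. By library the Snrpn difference was not uniform, since the Slc17a6 nuclei were higher in libraries 1 to 4 and lower in libraries 5 and 6 (297 against 304 and 307 against 316). Ndn went the other way, at 31.8 (29.4 to 34.3) in the GABA-gene nuclei and 23.7 (20.2 to 27.7) in the Slc17a6 nuclei. Only library 4 was an exception (38.2 and 41.7). In the other nuclei Grb10, at 216 (209 to 222), was above the GABA-gene nuclei in every library. Meg3 there, at 15790 (15734 to 15846), was below their 16509 (16453 to 16565) in every library.

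Peg3, whose product is a zinc finger protein linked to maternal behaviour, was spread far more evenly than its neighbour. It was highest in the Baiap3 cluster, at 270.1 (254, 273 and 284), and in thalamic neurons, at 267 (255, 268 and 276), which led in 3 libraries each. Interneurons held 215 (201, 214 and 228). Cortical neurons, at 119.5 (107, 117 and 143), and microglia, at 119 (78.3, 118 and 136), did not differ beyond their spread. Mature oligodendrocytes had the lowest pooled value, at 62.5 (34.9, 62.1 and 122.7), and were lowest in 4 libraries, with pericytes lowest in 2. Thalamic neurons and the Baiap3 cluster thus had overlapping intervals for Peg3. For Zim1 their intervals were apart, which the choice of Zim1 by its level in that cluster had fixed. Per 100 UMIs of Peg3 there were 8.36 of Zim1 in the Baiap3 cluster (5.58 to 11.5 by library) and 1.16 in thalamic neurons (0.797 to 1.70). The highest such ratio in another named class was 5.50, in dividing nuclei, from 17 Zim1 UMIs. Over the clusters, Peg3 and Zim1 correlated at 0.513. Zim1 had 2114 UMIs in all, against 72900 for Peg3, so counting error limits that value. The cluster for which Zim1 was chosen also enters it. The genes most alike to Zim1 were AW551984 (0.7501), Trmt61b (0.677) and Glra1 (0.673), and those most alike to Peg3 were Gm38393 (0.813), Tmem130 (0.812) and Cplx1 (0.809).

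**Figure D3:**
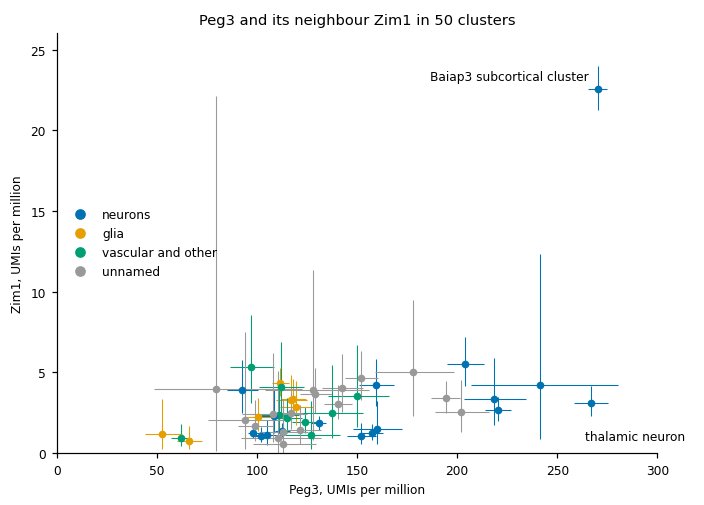
Zim1 (vertical) against Peg3 (horizontal) in 50 clusters, both as CPM on linear axes. Points are pooled clusters and lines in both directions are exact 95% Poisson intervals. The Baiap3 subcortical cluster and thalamic neurons lie side by side at a Peg3 level near 270.1 and 267, and far apart in Zim1, at 22.6 and 3.10.

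Subcortical neurons had more of most of these RNAs than cortical excitatory neurons. The comparison set 6959 nuclei of the Baiap3 cluster, thalamic neurons and a small glutamatergic cluster of 100 nuclei against 15498 cortical nuclei. Zim1, Snrpn and Grb10 were at least 2-fold higher in each library, 3 of 10 genes, against 5.13% of 15981 genes tested. Zim1 was chosen for its level in the Baiap3 cluster, so its place in that count was fixed by the choice, and nothing is read from it. Among the other 9 genes the count was 2. None was lower by the same count, against 2.02%. The log2 ratio was 3.75 (95% interval 3.53 to 3.97, libraries 2.50 to 4.66) for Zim1, 1.54 (95% interval 1.51 to 1.57, libraries 1.32 to 1.88) for Snrpn and 1.56 (95% interval 1.52 to 1.59, libraries 1.37 to 1.62) for Grb10. Peg3 was higher in all 6 libraries and short of 2-fold in library 4, at 1.17 (95% interval 1.14 to 1.20, libraries 0.96 to 1.29). Without library 4 it joined the count, with 5.79% of all genes then higher. It also did so when imprinted genes were let into the genes used for clustering, with 5.72% of all genes higher. Plagl1, at 1.02 (95% interval 0.87 to 1.17, libraries 0.86 to 1.37), Mirg, at 0.79 (95% interval 0.76 to 0.82, libraries 0.65 to 0.96), Meg3, at 0.78 (95% interval 0.77 to 0.78, libraries 0.64 to 0.85), and Rian, at 0.63 (95% interval 0.62 to 0.64, libraries 0.50 to 0.70), were also higher in all 6. Ndn, at 0.48 (95% interval 0.39 to 0.56, libraries 0.24 to 0.71), was higher in all 6 by less, and Igf2 lay on both sides of even, at 0.12 (95% interval -0.07 to 0.31, libraries -0.19 to 0.38), and at -0.02 per nucleus. The median was 0.79 over the 9 genes without Zim1 and 0.91 with it, beside 0.24 over all genes tested. At resolution 2.0 the nuclei of the Baiap3 cluster lost their name, the subcortical group shrank to 1655 nuclei, and the ratios of Zim1 (1.85, short of 2-fold in at least 1 library), Plagl1 (0.36) and Ndn (0.23) were lower. For Plagl1 the classes of the group differed, since thalamic neurons (4.92) were not above cortical neurons (5.41) and the Baiap3 cluster was. A cortical cluster of 520 nuclei held more Plagl1 (18.4) than the Baiap3 cluster (12.98). For Ndn, thalamic neurons were the lowest class in 3 libraries, leaving aside the small glutamatergic cluster, so there they lay below cortical neurons.

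A list of other imprinted genes, drawn up with results of these data known, was followed beside them, and 48 of its 51 genes were found. Of 41 tested between neurons and glia, 4 were at least 2-fold higher in neurons: Usp29 (log2 ratio 1.91), Rtl1 (2.08), a retrotransposon-derived gene of the Dlk1-Dio3 domain, Calcr (1.88) and Rasgrf1 (1.46). Commd1 (-1.23) was lower. The shares over all genes were 4.43% higher and 14.2% lower. Snhg14 (1.63), Ube3a (1.44), Kcnq1ot1 (0.95) and Dlk1 (0.36) were higher in all 6 libraries and Cdkn1c (-1.54) lower in all 6, each short of 2-fold in at least 1. Of 41 tested between subcortical and cortical neurons, 7 were at least 2-fold higher in subcortical neurons and 0 lower, against 5.13% and 2.02% of all genes. They were Dlk1 (3.00), a membrane ligand of the Dlk1-Dio3 domain, Usp29 (1.94), which shares a domain with Peg3, and Magel2 (2.99) of the Prader-Willi domain. The others were Calcr (4.15), the calcitonin receptor, Asb4 (3.55), Ddc (2.76), an enzyme of dopamine and serotonin synthesis, and Peg10 (2.23). Snhg14 (0.63) and Ube3a (0.64), of the Prader-Willi and Angelman domain, and Rtl1 (0.68) fell short of 2-fold.

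Ndn, a MAGE-family protein of postmitotic neurons, was lower in neurons than in most other classes of these libraries. Pooled over libraries it was highest among named classes in microglia, at 81.6 (41.4, 79.4 and 107), and lowest in cortical excitatory neurons, at 21.5 (9.01, 23.9 and 29.9). Leaving aside the small glutamatergic cluster of 100 nuclei, microglia led in 2 libraries, macrophages in 3 and fibroblasts in 1. The lowest class was thalamic neurons in 3 libraries, cortical neurons in 2 and macrophages in 1, so neither end of the order held across libraries. Astrocytes, at 63.7 (26.9, 62.3 and 78.97), OPCs, at 63.8 (25.9, 65.2 and 79.99), and endothelial nuclei, at 64.7 (25.3, 59.1 and 80.1), did not differ beyond counting error. The small glutamatergic cluster, at 74.4 (18.97, 75.7 and 131), was the only neuronal class in this upper range, from 53 UMIs. Striatal neurons, at 34.5 (13.6, 32.2 and 51.3), were above cortical neurons in every library.

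The level of Ndn moved with the library and with the mitochondrial share. Over all nuclei it was 42.0, 45.1, 50.9, 34.3, 20.4 and 15.9 CPM in libraries 1 to 6. Libraries 5 and 6, with the least mitochondrial RNA, were lowest. Within glia it was 67.7, 67.0, 78.2, 50.7, 33.7 and 26.4, beside mitochondrial shares of 0.214%, 0.312%, 0.224%, 0.123%, 0.0943% and 0.0758%. Across the 50 clusters, log2 Ndn correlated with the mitochondrial share at 0.840. The genes most alike to it were Slc25a4 (0.983), the mitochondrial ADP/ATP carrier, Uqcc2 (0.980), a respiratory chain assembly factor, and Aldoa (0.978), a glycolytic enzyme. The part of RNA from outside the nucleus in the Ndn counts was not tested.

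Snrpn, by contrast with Ndn, was high in subcortical neurons. It held 301 (263, 303 and 328) in the Baiap3 cluster and 303 (228, 268 and 406) in the small glutamatergic cluster, which did not differ beyond their spread. Thalamic neurons, at 225 (201, 214 and 258), and neuroblasts, at 225 (208, 223 and 258), came next. Cortical excitatory neurons had the lowest pooled value, at 97.2 (75.1, 102 and 111), but were lowest in only 1 library, with pericytes lowest in 3 and choroid plexus in 2. Per 100 UMIs of Snrpn there were 9.95 UMIs of Ndn in thalamic neurons, 10.5 in the Baiap3 cluster and 54.2 in choroid plexus. By library these ratios ran from 3.86 to 15.8, from 4.54 to 15.5 and from 23.5 to 63.4. The ratio of these neighbours thus varied more between classes than the ratios within Dlk1-Dio3. Their levels still correlated at 0.543 across the 50 clusters, and the small glutamatergic cluster was high in both. Genes most alike to Snrpn were Zcchc18 (0.840), Gprasp2 (0.801) and Cplx1 (0.783). Snrpn also moved with the library, at 171, 169, 174, 141, 128 and 131 CPM over all nuclei of libraries 1 to 6. Across clusters it correlated with the mitochondrial share at 0.281. The part of RNA from outside the nucleus in its counts was not tested.

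Grb10 had its highest levels in groups of unlike kind. The small glutamatergic cluster had the highest pooled value, 264 (202, 267 and 332), with an interval that overlapped that of choroid plexus. Choroid plexus held 256 (229, 245 and 356), fibroblasts 219 (202, 214 and 281), pericytes 205 (176, 208 and 297) and endothelial nuclei 157 (139, 162 and 199). The Baiap3 cluster, at 203 (185, 202 and 230.2), lay among them, and thalamic neurons held 129 (113, 132 and 137). So subcortical neurons and the vascular and border classes overlapped. Cortical excitatory neurons held 63.3 (59.4, 63.5 and 67.2), astrocytes 28.2 (21.9, 22.4 and 46.8), and dentate granule neurons, at 18.1 (7.58, 16.7 and 39.8), were as low as mature oligodendrocytes, at 17.8 (9.51, 16.2 and 49.5). Genes most alike to it were Gm17276 (0.836), Rbms1 (0.761) and Mapkbp1 (0.742).

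Plagl1 and Igf2 were highest in classes at the borders of the brain. Plagl1 held 57.1 (34.1, 56.8 and 95.02) in choroid plexus, 28.4 (22.97, 28.2 and 41.8) in ependymal nuclei and 25.03 (14.2, 25.7 and 45.3) in fibroblasts. The Baiap3 cluster, at 12.98 (11.7, 12.5 and 17.8), and neuroblasts, at 12.7 (7.14, 12.9 and 19.99), came next, with intervals that overlapped that of astrocytes, at 11.8 (8.49, 11.7 and 18.3). Neuronal classes were thus spread over the Plagl1 order, and the lowest pooled value was that of striatal neurons, at 3.16 (2.59, 3.19 and 3.56). Striatal neurons were the lowest class in none of the 6 libraries, and dentate granule neurons were in 2, again leaving aside the small glutamatergic cluster. Igf2 was highest in fibroblasts in all 6 libraries, at 68.9 (53.3, 68.9 and 111). Pericytes held 52.7 (36.7, 55.9 and 71.1) and choroid plexus 32.5 (15.5, 33.96 and 43.7). Mature neuronal classes lay between 4.31 in thalamic and 7.24 in striatal neurons, and neighbours in their order had overlapping intervals. Across clusters, the genes most alike to Igf2 were Ptgds (0.924), a meningeal prostaglandin synthase, and the collagens Col3a1 (0.921) and Col1a1 (0.917). Igf2 also correlated with the mitochondrial share, at 0.845. The genes most alike to Plagl1 were Col8a2 (0.711), Trim39 (0.703) and Efhb (0.675).

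Fibroblasts were set against endothelial nuclei and pericytes, 2236 against 4890 nuclei. Plagl1 was at least 2-fold higher in fibroblasts in each library, 1 of 9 genes tested, against 3.48% of 12840 genes, and none of the 9 was lower, against 4.99%. Its log2 ratio was 2.08 (95% interval 1.79 to 2.38, libraries 1.19 to 3.70). The fibroblasts join a weakly named cluster of 585 nuclei, with Plagl1 at 63.5, and a cluster of 1651 nuclei with far less, as given below. Whether the larger cluster alone would pass the 2-fold count was not tested. Igf2 was higher in all 6 libraries, at 0.94 (95% interval 0.80 to 1.08, libraries 0.82 to 1.15), close to the 2-fold limit on either side. The other 7 had ratios from -0.04 for Snrpn to 0.28 for Grb10. Zim1 had 67 UMIs over both groups and was not tested. The median over the 9 genes was 0.16, beside 0.03 over all genes. At a coarser clustering (resolution 0.5) the gene that passed was Igf2 and not Plagl1, with 3.77% of all genes higher and 3.74% lower. The ratios of Meg3 (-0.20), Rian (-0.19), Mirg (-0.22), Peg3 (-0.10) and Ndn (-0.12) changed direction. The fibroblasts hardly changed there (2238 nuclei), but the endothelial nuclei and pericytes fell to 3961. A cluster of 1485 nuclei led by genes of both those types stayed unnamed.

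The 2 fibroblast clusters had opposite levels of Igf2 and Plagl1. The larger, with 1651 nuclei and led by the meningeal transporters Slc6a20a and Slc6a13, held Igf2 at 89.3 (75.4, 89.1 and 139.5) and Plagl1 at 8.45 (4.36, 9.33 and 14.9). The smaller had 585 nuclei and was led by Bnc2 and Slc47a1, with Cdh1 also among its leading genes. It was the more weakly named, with 4 of 6 fibroblast markers raised and a score of 1.40, against 5 and 3.35 in the larger. The pooled fibroblast value of Plagl1 thus joins 2 clusters of unlike level. The smaller cluster held Igf2 at 21.7 (8.44, 22.2 and 32.6) and Plagl1 at 63.5 (36.5, 67.9 and 130.2). For both genes the libraries of the clusters did not overlap. Grb10 was 181 (156, 183 and 233) in the larger and 308 (257, 315 and 456) in the smaller cluster, also without overlap. The pericyte cluster that carried both Rgs5 and the endothelial gene Flt1 held more Igf2, 58.7 (38.2, 62.7 and 71.5), than the pericyte cluster with Carmn and Notch3 among its leading genes, 31.6 (18.9, 32.8 and 68.8), with overlapping libraries. The former cluster, 1102 of the 1779 pericyte nuclei, scored 3.55 on the pericyte list and 3.23 on the endothelial list and had a median doublet score of 0.60, against 0.40 in the other, so the pooled pericyte value rests mainly on nuclei with markers of both types. The imprinted genes had no part in drawing these clusters, which were chosen for description after their values were seen.

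**Figure D4:**
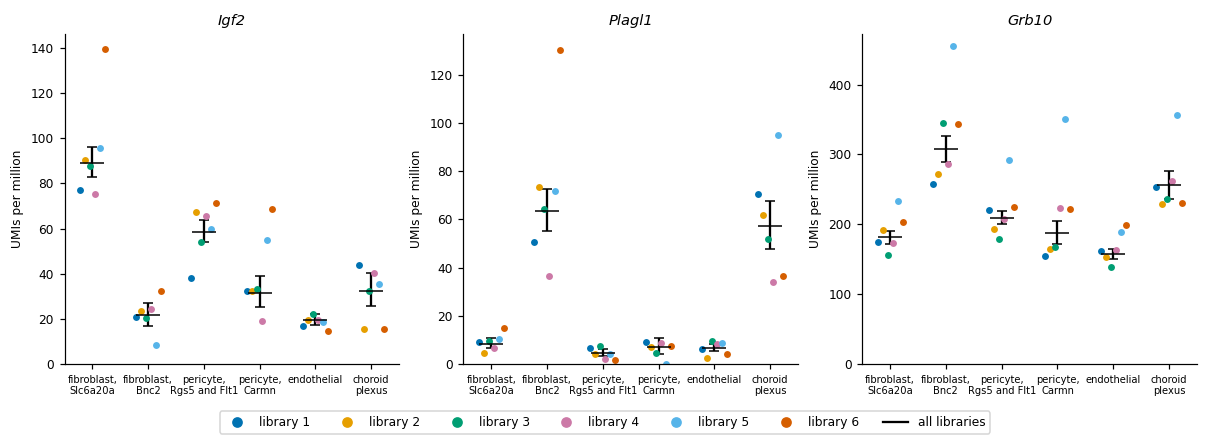
Igf2, Plagl1 and Grb10 in the clusters of fibroblasts, pericytes, endothelial nuclei and choroid plexus, as CPM on linear axes from 0. Points are libraries, horizontal bars pooled values and vertical bars exact 95% Poisson intervals. Igf2 is highest in the Slc6a20a fibroblasts (75.4 to 139.5 by library), and Plagl1 in the Bnc2 fibroblasts (36.5 to 130.2) and choroid plexus.

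Of the other imprinted genes, 36 were tested in that comparison. Nnat (log2 ratio 2.13), a small membrane protein, and Dcn (2.73), the matrix proteoglycan decorin, were at least 2-fold higher in fibroblasts. Atp10a (-3.33), Kcnq1 (-4.50), Asb4 (-3.15) and Ddc (-3.48) were lower. Over all genes the shares were 3.48% and 4.99%. H19, the noncoding neighbour of Igf2, had 90 UMIs in all nuclei, 31 of them in fibroblasts, which was too few for the comparison.

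Neuroblasts, the immature GABA neurons with Cpa6 and Dlx6os1 among their leading genes, were compared with striatal neurons and interneurons, 1792 against 8825 nuclei. None of the 10 genes was 2-fold apart in every library, against 1.52% of 13418 genes higher and 1.54% lower. The noncoding RNAs of Dlk1-Dio3 were lower in neuroblasts in all 6 libraries, with log2 ratios of -0.88 (95% interval -0.90 to -0.87, libraries -1.02 to -0.62) for Meg3, -0.64 (95% interval -0.68 to -0.60, libraries -0.74 to -0.40) for Rian and -0.81 (95% interval -0.91 to -0.71, libraries -0.97 to -0.33) for Mirg. Plagl1, at 1.39 (95% interval 1.05 to 1.70, libraries 0.59 to 2.21), Igf2, at 0.89 (95% interval 0.56 to 1.20, libraries 0.25 to 1.58), Ndn, at 0.68 (95% interval 0.52 to 0.83, libraries 0.26 to 1.07), and Snrpn, at 0.43 (95% interval 0.36 to 0.50, libraries 0.27 to 0.57), were higher in all 6. Zim1 was higher in all 6 as well, from 35 UMIs. Peg3, at -0.07 (95% interval -0.15 to 0.01, libraries -0.29 to -0.07), was slightly lower in each library. Library 3 gave 807 of the neuroblasts, the other libraries 167 to 229, and Grb10 was lower in neuroblasts in libraries 3 and 4 and higher in the other 4. The median over the 10 genes was 0.18, beside 0.20 over all genes. Per nucleus, where the median of all genes moved to -0.55, Meg3, Rian and Mirg passed the 2-fold count as lower, as did 6.90% of all genes on that scale instead of 1.54%, and the direction of Zim1 (-0.04), Ndn (-0.07) and Snrpn (-0.32) changed. Of the other imprinted genes, Atp10a (2.01), a lipid flippase, and Airn (1.71), a noncoding RNA that silences Igf2r, were at least 2-fold higher in neuroblasts, of 36 tested, against 1.52% of all genes. Without library 1, Plagl1 passed the 2-fold count as higher, with 1.65% of all genes.

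Striatal neurons were also compared with cortical neurons, 5462 against 15498 nuclei. None of the 10 was 2-fold apart in every library, against 3.88% of 15425 genes higher and 4.58% lower. With shares this low, nothing is read from that count. The median log2 ratio was 0.29 over the 10 genes, beside 0.09 over all genes tested. Ndn (0.68, 0.37 to 0.85), Snrpn (0.60, 0.38 to 0.79), Igf2 (0.58, 0.08 to 0.91), Grb10 (0.46, 0.35 to 0.57) and Peg3 (0.13, 0.04 to 0.20) were higher in striatal neurons in all 6 libraries. Plagl1 (-0.77, -1.19 to -0.52), Meg3 (-0.25, -0.28 to -0.20) and Rian (-0.08, -0.12 to -0.01) were lower in all 6. Each value is a pooled log2 ratio with its lowest and highest library. Per nucleus the median of all genes moved from 0.09 to -0.36, and Peg3 turned to -0.32. Grb10 was then even (0.006), and Igf2 (0.13) and Snrpn (0.15) were close to even. Ndn (0.23) stayed higher, and Plagl1, Meg3 and Rian stayed lower. On the other list, Inpp5f (1.43), Ddc (2.00) and Adam23 (1.15) were at least 2-fold higher in striatal neurons and Kcnk9 (-2.12) lower, of 38 tested, against 3.88% and 4.58% of all genes.

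**Figure D5:**
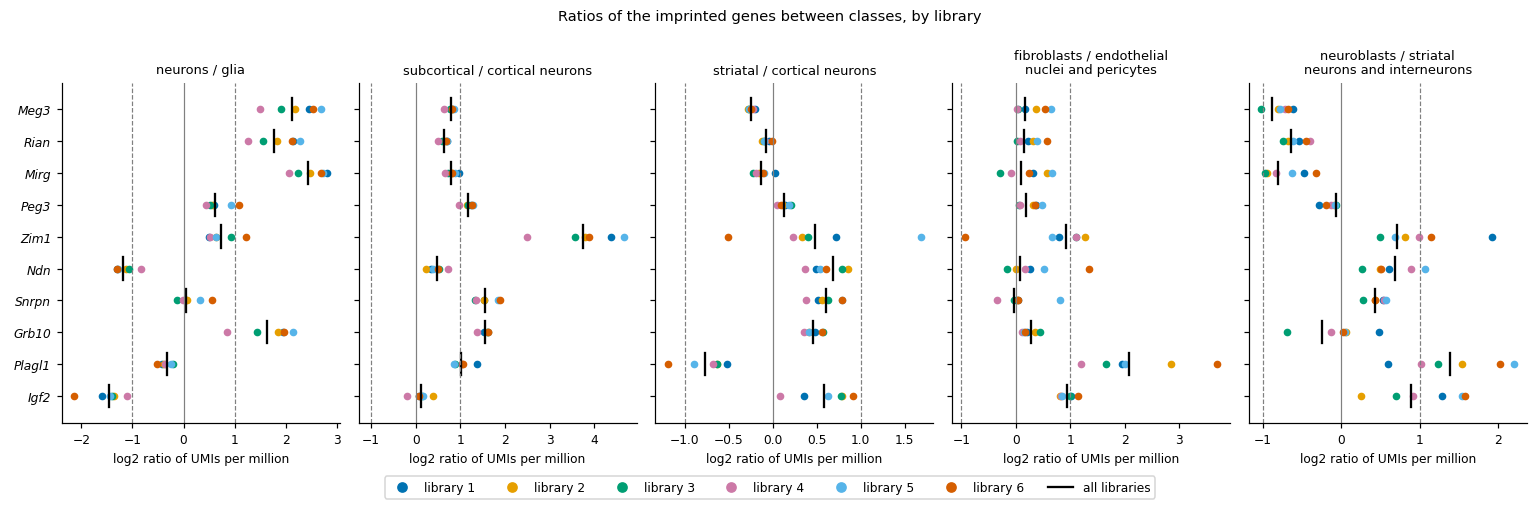
Log2 ratio of CPM for the 10 imprinted genes in 5 comparisons of classes, on linear axes that differ in range. Points are libraries, bars are pooled ratios, the solid line marks an even level and dashed lines a 2-fold difference. All 6 libraries lie beyond 2-fold for Meg3, Rian, Mirg and Igf2 in the first panel, for Zim1, Snrpn and Grb10 in the second, for Plagl1 in the fourth and for none in the others. The fibroblasts of the fourth panel join clusters of unlike Plagl1 level. Zim1 in the fourth panel rests on 67 UMIs and was not counted.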

How the data were processed

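Nuclei of P16 forebrain were profiled with 10x Chromium 3' chemistry. The deposited matrix holds raw UMI counts per gene and barcode, whole numbers without normalization, with 6 libraries joined under barcode suffixes. The submitters' processing notes name Cell Ranger 2.1.1 and mm10, while the file header carries another release of Cell Ranger and the study's methods name STARsolo, so the exact pipeline behind the counts is not settled. No key from suffix to mouse was given in the sources used here. WT and Npc1-/- were therefore not compared, no test was run, and the exact 95% Poisson, Clopper-Pearson and binomial-ratio intervals describe counting error only.

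Barcodes with a mitochondrial share of 10% or more were removed (11). For clustering, each nucleus was brought to a total of 10000 UMIs and put on a log scale, and 3000 variable genes without the listed imprinted genes gave 30 principal components, 20 neighbours and Leiden clusters at resolution 1 (Python 3.11.15, numpy 2.4.6, scipy 1.17.1, scanpy 1.11.5, leidenalg 0.10.2, matplotlib 3.10.9). Clusters were named from marker lists, with limits set after the clusters were seen. Doublets were scored against simulated ones, and clusters of high score stayed unnamed.

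UMIs were summed per class and library and scaled to CPM, a total of 1000000. A gene was called when it differed at least 2-fold in the same direction in all 6 libraries, with a pseudocount of 0.5 UMI and at least 200 UMIs over both groups. The calling steps were tested on simulated counts in which each gene had the same rate in all 6 libraries. Variation between libraries was therefore not covered by that test. Named genes were the 10 members, other imprinted genes that were called or lie in the members' domains, and the 3 genes most alike to each member across clusters, among genes with 500 or more UMIs. The members and lists were chosen with earlier results of these data known.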

Additional observations from a re-analysis of the deposited data

Results flagged for a closer look

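Of 60 sets of 6 library values that were examined for a value standing apart by Dixon's criterion, 3 had such a library, and chance gives about 1 in 20. The libraries form no labelled group. The log2 ratio of Grb10 between subcortical and cortical neurons was 1.37 in library 4, and 1.53 to 1.62 in the others. The log2 ratio of Zim1 between fibroblasts and other vascular nuclei was -0.94 in library 6, where fibroblasts had 0 UMIs and the value rests on the pseudocount, and 0.66 to 1.26 in the others. The log2 ratio of Snrpn in the same comparison was 0.80 in library 5, and -0.35 to 0.04 in the others.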

How the results depend on the processing

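No paired analysis was possible because the barcode suffixes have no key to genotype or replicate number. Classes were compared within each library. Of 700 log2 ratios of single genes under 14 alternatives, 641 stayed inside the range over libraries. Of 112 values of the 8 called ratios, 105 were still called and 0 changed sign, while 19 ratios of any member changed sign. The alternatives include leaving out each library in turn, which weighs little in these counts. A ratio pooled over the remaining libraries tends to stay inside their range. A call needs every library, so leaving out a library could remove a call only through the limit on UMIs. The calls that were lost were all lost under other alternatives. Members called between neurons and glia went from 4 to 0 with clusters of high doublet score kept, an alternative added after the data were seen, where all genes went from 4.43% to 0.3498% higher and from 14.2% to 10.6% lower. At a fold of 1.5 the members called were 7 between subcortical and cortical neurons (all genes 10.6% higher and 4.66% lower), 2 for fibroblasts (6.09% and 7.68%) and 2 for neuroblasts (4.34% and 3.41%). The 7 include Zim1, whose place was fixed by its choice. Between neurons and glia, Grb10 and Ndn also passed at that fold, with 10.0% of all genes higher and 27.2% lower. Per nucleus, 3 were called for neuroblasts, all lower, beside 6.90% of all genes. Leaving out each library in turn gave 4 to 6 members for neurons and glia, with Grb10 and Ndn added without library 4, where all genes went to 6.76% higher and 17.2% lower, 3 to 4 for subcortical neurons, and 0 to 1 for neuroblasts. With no filter on low counts, all genes called were 2497 instead of 1143 for subcortical, 2042 instead of 1305 for striatal and 3771 instead of 410 for neuroblast comparisons. Grb10 without library 3 was 0.11 instead of -0.25 in neuroblasts. At resolution 2.0 the median of the members between neurons and glia was 0.11 instead of 0.67. The cause of these changes was not tested. Depth limits Zim1, Plagl1 and Igf2 in small classes, where some libraries had few or 0 UMIs.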

Other observations

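Nuclei that stayed unnamed held some of the highest levels of these genes. In a cluster of 1492 nuclei led by Mbp and mitochondrial transcripts, with a median of 2441 UMIs and a mitochondrial share of 1.12%, Ndn stood at 165 CPM, Snrpn at 392 and Igf2 at 44.2. By library, Ndn there ran from 115 to 172, above the pooled value of every named class. In a cluster of 6703 nuclei led by Gm42418 and Cmss1, with a median of 1907 UMIs, Ndn stood at 103, Snrpn at 252 and Meg3 at 6689. These values belong to no named class and enter no comparison.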
